A study of Camelus bactrianus with 10 samples.

Results

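The miR-106b-25 cluster is a group of microRNA hairpins, miR-106b, miR-93 and miR-25, that lie in an intron of MCM7 in human and mouse. It was examined here in small RNA from plasma exosomes of Bactrian camels. Exosomes are small vesicles that cells release into blood. All rows of the deposited table that carry the name of 1 of these hairpins were taken, for both arms and with any note on changed ends or bases, which gave 7 of the 2581 rows. Of these, 3 belonged to miR-106b, 2 to miR-93 and 2 to miR-25. The rows were chosen by name, but the cluster was selected on measured values, the thin against normal differences of miR-106b-3p and its mates. Differences between thin and normal camels are therefore given as a description. Calls from a fit of the whole table are counted for the members, but the choice of the cluster had already used that contrast, so they are no support for it. The arm and mate tests use ratios within each library over both groups together. The 2 groups were 5 thin and 5 normal camels (Camelus bactrianus). No treatment, genotype, age or sex was labelled. Body weight ran from 402.6 to 421.2 kg in thin and from 452.3 to 492.8 kg in normal camels. The labelled tissue was plasma, with exosomes isolated by high-speed centrifugation, so the cells that released the RNA were not separated. A lower value can stand for fewer vesicles of a type or for less of the RNA in each, and these cannot be told apart. Values are normalized counts with a scaling factor that is not given, so a lower value need not be a lower amount in plasma.

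A microRNA hairpin is cut from a longer transcript and leaves a duplex of a 5p and a 3p arm. Usually 1 arm is kept in the silencing complex while the other is degraded, and the kept arm finds its targets with bases 2 to 8 from its 5′ end, the seed. In human and mouse the hairpins of the cluster are transcribed with MCM7, which encodes a subunit of the replicative DNA helicase, and the cluster is induced by the cell cycle factor E2F1. The 5p arms of miR-106b and miR-93 have the seed of miR-17 and repress, among others, the cell cycle inhibitor CDKN1A in human cells. The 3p arm of miR-25 has the seed of miR-92a and represses the cell death gene BCL2L11. All members are known to be raised in human hepatocellular carcinoma, the tumour that the title of the series names. In RefSeq's annotation of the Bactrian camel assembly ASM4877302v1, MCM7 lies between COPS6 and AP4M1.

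The sequences of the 7 rows are shown because the arms and the shared seeds carry the comparisons that follow. They are as deposited, 5′ to 3′, with the seed in capitals. By the row names some differ at the right end from the named reference form. MiR-106b-3p lacks 2 bases there, miR-93-5p and miR-93-3p have 1 more, and miR-25-5p has 2 more. The row of miR-106b-5p with 2 more bases at the left end also lacks 1 at the right end.
miR-106b-5p: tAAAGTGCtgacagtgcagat
miR-106b-5p with 2 more bases at the left end: aATAAAGTgctgacagtgcaga
miR-106b-3p: cCGCACTGtgggtacttgct
miR-93-5p: cAAAGTGCtgttcgtgcaggtagt
miR-93-3p: aCTGCTGAgctagcacttcccga
miR-25-5p: aGGCGGAGacttgggcaattgct
miR-25-3p: cATTGCACttgtctcggtctga
MiR-106b-5p and miR-93-5p had the same seed, and 16 of their 21 aligned bases were equal. The 3 dominant seeds of the cluster were thus that of both 5p arms, that of miR-106b-3p, which no other row of the table held, and that of miR-25-3p. The extended form of miR-106b-5p starts 2 bases earlier, which moves its seed to that of 6 rows of miR-142-5p, a miRNA of blood cells. No member had the same sequence as another row of the table.

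Values were a signal that the column headers call normalized counts. In each library 88.5% to 91.4% of the low values were whole multiples of 1 step, taken here as 1 read, and the others were mostly fractions of it, as reads shared between rows would give. This step is an inference. Of the same values 98.7% to 99.8% are whole multiples of a step of 0.5 of it, and with that step as 1 read every read count and depth given here would double and the counting intervals would narrow. All 59 member values above 0 were whole within 0.02 of a read. By this step the libraries held 252631 to 1469137 reads in thin and 393704 to 2237451 reads in normal camels. Thin 4, normal 4 and normal 5 were the 3 deepest. Of the positive values 96.3% were at 5 or more reads, so a value of 0 was read as fewer than about 5 reads and not as absence.

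MiR-25 was the most abundant hairpin of the cluster in every library, and miR-93 and miR-106b could not be ordered. MiR-25-3p ranked between 13 and 32 among the listed small RNAs of a library, miR-93-5p between 34 and 51, miR-106b-5p between 49 and 74, and miR-106b-3p between 47 and 90. With both arms summed, miR-25 exceeded miR-93 by 1.28 ± 0.34 and miR-106b by 1.30 ± 0.21 on the log2 scale (SD, n = 10 libraries, higher in 10 of 10 for both). Each difference had a two-sided exact sign-flip permutation p of 0.00195, the smallest possible for 10 libraries, and an adjusted p of 0.00293 over the 3 pairs. MiR-93 exceeded miR-106b in 5 of 10 libraries, with a mean log2 ratio of 0.02 ± 0.30 (exact permutation p = 0.830). It was the higher in 4 of 5 thin libraries and in 1 of 5 normal ones, with mean log2 ratios of 0.21 and -0.17, a contrast that was not tested. Its ratio to miR-106b ran from 0.715 in normal 5 to 1.39 in thin 5. Ligation and amplification favour some sequences over others, so these ratios describe the libraries and not molecule numbers in plasma.

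The hairpins differed in their arm usage. MiR-93 was found almost wholly as its 5p arm, with a log2 ratio of 5p over 3p of 7.31 ± 1.82 (SD, n = 10). MiR-25 was found almost wholly as its 3p arm, with a log2 ratio of -9.64 ± 2.09. Both directions held in 10 of 10 libraries (two-sided exact sign-flip permutation p = 0.00195, adjusted p = 0.00293 over the 3 hairpins). Over the libraries in which both arms were listed, miR-93-5p exceeded miR-93-3p by 53.3-fold to 405-fold in 9 libraries, and miR-25-3p exceeded miR-25-5p by 132-fold to 1514-fold in 8. MiR-106b was the exception, with no arm dominant and a log2 ratio of 0.14 ± 0.38. Its 5p arm was the higher one in 5 of 10 libraries (exact permutation p = 0.270, adjusted p = 0.270). That mean joins thin and normal libraries with ratios of opposite sign, so the p-value does not show that the arms were equal.

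The libraries in which the 5p arm of miR-106b was the higher were the 5 thin ones. The ratio of miR-106b-5p, both rows summed, to miR-106b-3p was 1.25, 1.50, 1.47, 1.23 and 1.51 in thin 1 to 5. In normal 1 to 5 it was 0.839, 0.936, 0.977, 0.724 and 0.927. Every thin library lay above 1 and every normal library below it, so the groups did not overlap. The mean log2 ratio was 0.47 ± 0.15 in thin and -0.19 ± 0.17 in normal camels (SD, n = 5 each), a difference of 0.66. A ratio of this kind does not depend on how a library was scaled. Without normal 4 and normal 5 the difference was 0.60, without the 3 deepest libraries 0.64, and with any single library left out between 0.59 and 0.70. Over the 65 hairpins with both arms tested, the arm ratio did not overlap between thin and normal camels in 3, or 4.62%, namely miR-106b, miR-142 and miR-5112. By the size of the difference miR-106b took place 27 of 65, so that many hairpins had larger differences with groups that overlapped. The sign of the log2 arm ratio varied over the libraries in 11 of the 65. Because this contrast was in view when the cluster was chosen, nothing is read from its standing among the hairpins.

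**Figure D1:**
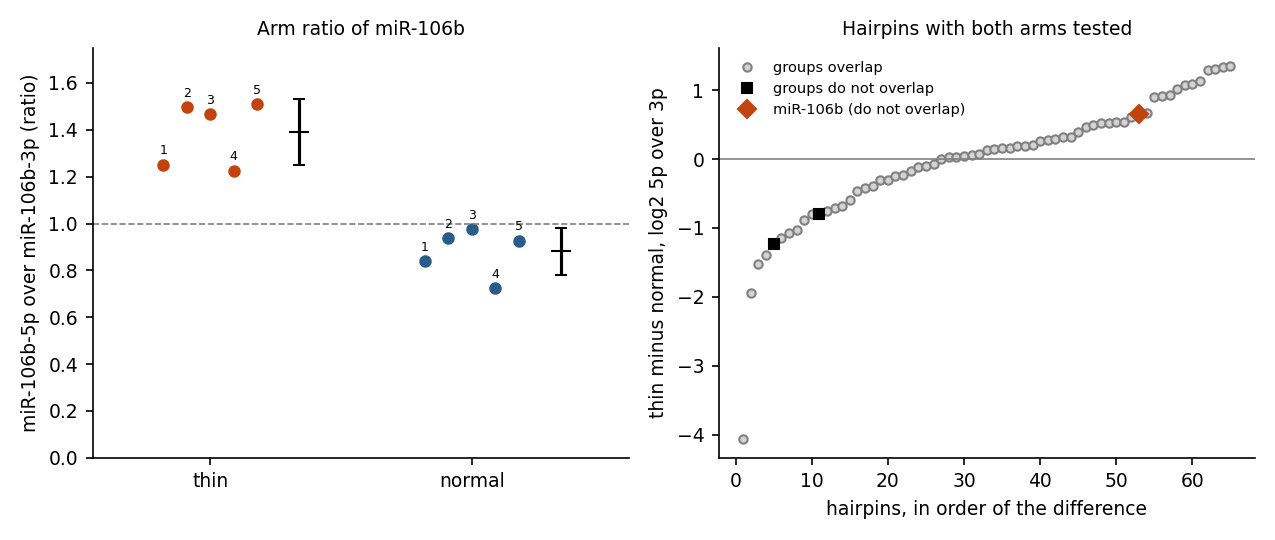
Left, the ratio of miR-106b-5p to miR-106b-3p in each library (numbered points; bars, mean and SD of 5 libraries; dashed line, equal arms), with thin libraries between 1.23 and 1.51 and normal libraries between 0.724 and 0.977. Right, the difference of the mean log2 ratio of 5p over 3p, thin minus normal, for 65 hairpins in order of size, where miR-106b is 1 of 3 whose groups do not overlap.

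MiR-106b-3p, the arm opposite to the miR-17-like one, had 1265, 741, 1028, 1036 and 924 normalized counts in thin 1 to 5. It had 1506, 1977, 2427, 2032 and 1934 in normal 1 to 5. All thin values lay below all normal values, and the nearest were 1265 in thin 1 and 1506 in normal 1. The means were 999 ± 191 in thin and 1975 ± 328 in normal camels (SD, n = 5 each), and the log2 fold change of thin over normal was -0.99 ± 0.21 (SE). It was -0.91 without normal 3 and -0.80 with equal library totals. The row rested on 351 to 6153 reads per library. In thin 2, the shallowest library, the exact Poisson 95% interval of the value was 665 to 822, which covers counting error only, and this is narrower than the spread within either group.

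MiR-106b-5p, the miR-17-like arm of the same hairpin, had 1582, 1108, 1509, 1269 and 1395 normalized counts in thin 1 to 5. It had 1264, 1851, 2366, 1469 and 1793 in normal 1 to 5. The groups overlapped: normal 1 lay below 4 of the 5 thin libraries, and normal 4 below thin 1 and thin 3. The means were 1372 ± 190 in thin and 1749 ± 420 in normal camels, with a log2 fold change of -0.33 ± 0.22. It was -0.21 without normal 3 and -0.14 with equal library totals. The extended form of this arm was listed in normal 3 and normal 4, with 5 and 6 reads, and at 0 in the other 8 libraries.

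MiR-93-5p, the other miR-17-like arm of the cluster, had 3665, 2152, 2151, 2547 and 3210.1 normalized counts in thin 1 to 5. It had 2719, 3131, 4462, 3609 and 2617 in normal 1 to 5. The groups overlapped widely, with thin 1 above 4 of the 5 normal libraries. The means were 2745 ± 672 in thin and 3308 ± 755 in normal camels, with a log2 fold change of -0.27 ± 0.23. It was -0.16 without normal 3 and -0.09 with equal library totals.

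MiR-25-3p, the miR-92a-like arm and the most abundant member, had 7059.7, 4123, 5355, 5041 and 5751 normalized counts in thin 1 to 5. It had 7869, 10939, 11464, 11012 and 7555 in normal 1 to 5. All thin values lay below all normal values, with thin 1 closest to normal 5. The normalized totals were 532999 to 692847 in thin and 655636 to 757352 in normal libraries. As a share of the library total the groups overlapped narrowly, at 1.019% in thin 1 and 1.018% in normal 5. The means were 5466 ± 1075 in thin and 9768 ± 1891 in normal camels, with a log2 fold change of -0.84 ± 0.21. It was -0.77 without normal 3 and -0.65 with equal library totals.

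**Figure D2:**
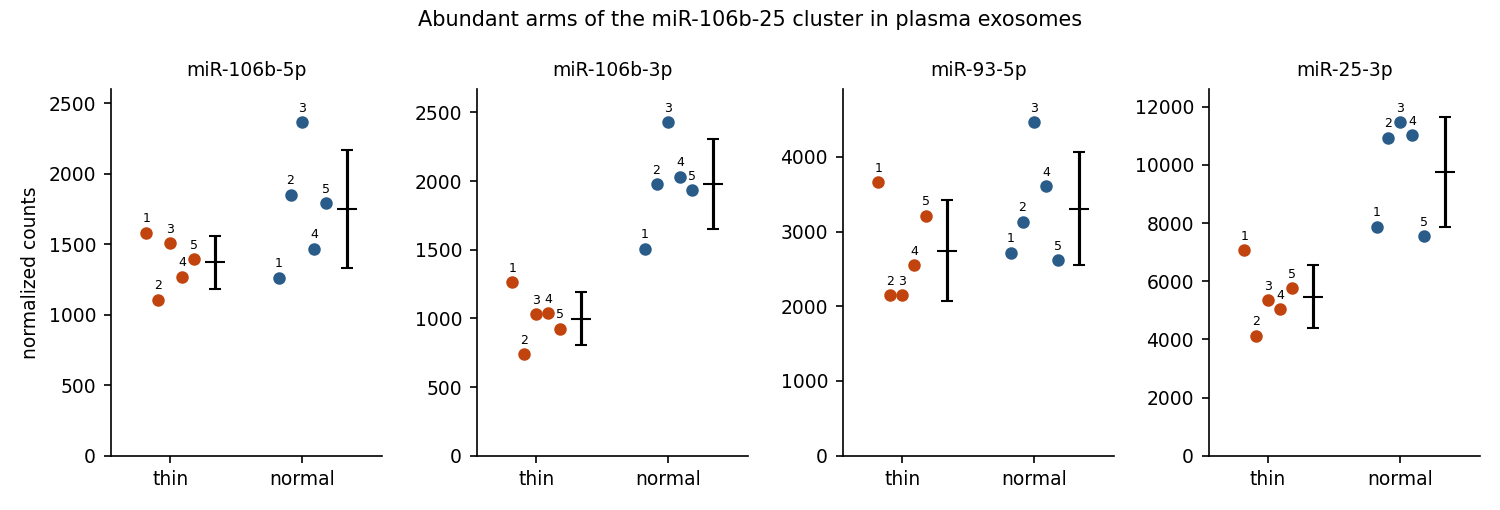
Normalized counts of the 4 abundant arms in each library (numbered points; bars, mean and SD of 5 libraries), thin at the left of each panel. MiR-106b-3p and miR-25-3p do not overlap between thin and normal camels, at means of 999 against 1975 and 5466 against 9768, while miR-106b-5p and miR-93-5p do.

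In normalized counts the 2 abundant 3p arms were thus lower in each thin library than in any normal one. Both abundant 5p arms overlapped between the groups. As a share of the library total, only miR-106b-3p kept the groups apart, at most 0.183% in thin and at least 0.230% in normal camels. Of the 7 member rows 5 passed the filter of 10 or more in at least 5 libraries and were tested. The groups did not overlap in normalized counts in 2 of these 5, against 17 of all 468 tested small RNAs, or 3.63%. Both lay lower in every thin than in every normal library, as did 1.50% of those tested, and 0 of 5 lay higher, as did 2.14%. As these values chose the cluster, nothing is read from these counts or from the calls that follow. Over the whole table limma (trend, Benjamini-Hochberg adjusted p of 0.05) called 9 of 468 rows, or 1.92%, 6 of them with higher and 3 with lower values in thin camels (6 and 1 after trimmed mean rescaling). MiR-106b-3p was 1 of the 3 rows called lower, which are 0.641% of those tested, and the other 4 tested members were not called. The call of miR-106b-3p was lost when any single library other than thin 1 or normal 1 was left out, with log2 fold changes between -1.08 and -0.89 over all 10. It was also lost without normal 4 and normal 5 (-0.97), without the 3 deepest libraries (-0.99), with no filter, after trimmed mean or upper quartile rescaling, and without a mean trend. MiR-25-3p was called without thin 1, at -0.93, with no filter, and with a filter of 10 or more in all libraries. The 5 tested members had a median log2 fold change of -0.33, against -0.01 over all tested, with 4 below and 1 above 0.

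The shares of miR-25 and miR-93 in the cluster also did not overlap between the groups, which is given as a description. MiR-25 made up 51.9%, 50.7%, 53.2%, 50.9% and 51.0% of the cluster's normalized counts in thin 1 to 5. It made up 58.8%, 61.1%, 55.3%, 60.7% and 54.3% in normal 1 to 5. MiR-93 made up 26.0 ± 2.58% in thin and 19.7 ± 1.54% in normal camels (SD, n = 5 each). Thin 3, at 21.7%, was the thin library closest to the normal ones, the highest of which was normal 3 at 21.6%. Shares of miR-106b overlapped, at 22.5 ± 1.85% in thin and 22.2 ± 2.83% in normal camels. Shares of 1 sum depend on each other, and miR-93-5p itself had a lower mean in thin camels, at 2745 against 3308 normalized counts. The ratio of miR-25-3p to miR-93-5p was 2.02 ± 0.27 in thin and 2.98 ± 0.34 in normal camels, and that of miR-106b-3p to miR-93-5p was 0.372 ± 0.073 and 0.606 ± 0.082. In both ratios each thin library lay below each normal one. The ratio of miR-106b-5p to miR-93-5p overlapped, at 0.516 ± 0.110 in thin and 0.536 ± 0.108 in normal camels, as did that of miR-25-3p to miR-106b-3p, at 5.49 ± 0.51 and 4.96 ± 0.67. Between thin and normal camels the ratios of like arms, 3p to 3p and 5p to 5p, thus overlapped. Of the 4 ratios of an abundant 3p to an abundant 5p arm, 3 did not. That of miR-25-3p to miR-106b-5p did, at 3.97 ± 0.35 in thin and 5.74 ± 1.27 in normal camels. These shares and ratios are built from the values that chose the cluster. Like shares and ratios between other rows were not counted, so nothing is read from the shares or from these counts. The whole cluster made up 1.69 ± 0.20% of thin and 2.37 ± 0.38% of normal libraries, with overlap between normal 5, at 1.89%, and thin 1, at 1.96%.

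**Figure D3:**
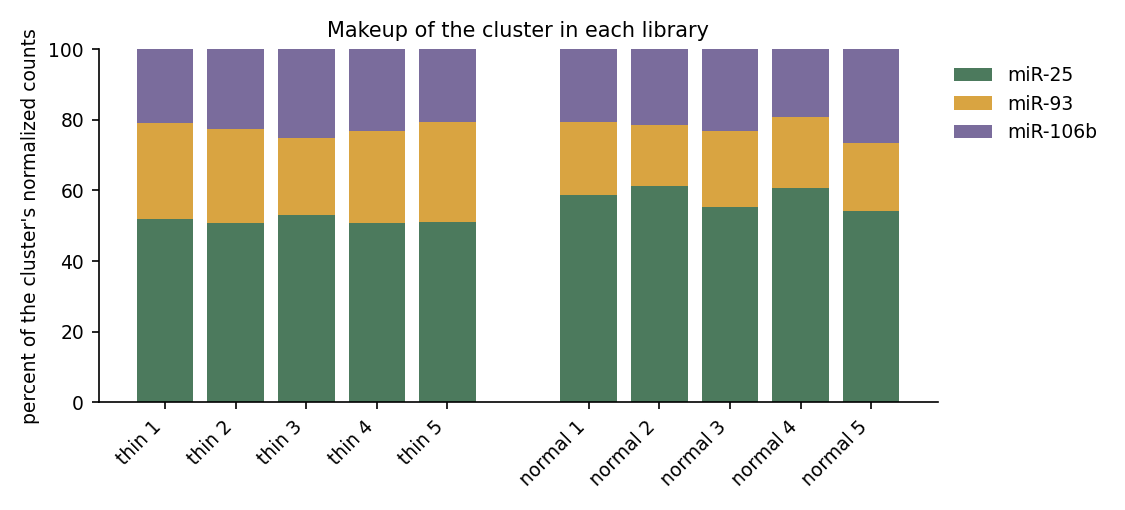
Share of miR-25, miR-93 and miR-106b (both arms summed) in the cluster's normalized counts of each library, in percent, thin libraries at the left. The share of miR-25 is 50.7% to 53.2% in thin and 54.3% to 61.1% in normal libraries.

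The minor arms were scarce. MiR-93-3p, the arm opposite to miR-93-5p, had 19.7, 27.4, 34.8, 46.5 and 7.93 normalized counts in thin 1 to 5. It had 21.5, 0, 12.3, 36.6 and 49.1 in normal 1 to 5, on at most 148 reads. The groups overlapped over nearly their whole range. The fitted log2 fold change was 0.80 ± 1.01, although the ratio of the means was 1.14. It was 0.28 with a pseudocount of 10 and turned to -0.16 without normal 2, where the arm was listed at 0, which at 5 reads means less than about 8.65. MiR-25-5p, the arm opposite to miR-25-3p, had 0, 12.7, 6.69, 38.3 and 9.52 in thin 1 to 5 and 8.86, 0, 7.57, 21.1 and 43.1 in normal 1 to 5. It did not pass the filter, so no fold change is given. Both minor arms were highest in the 3 deepest libraries. There miR-93-3p had 36.6 to 49.1 and miR-25-5p 21.1 to 43.1 normalized counts, against 0 to 34.8 and 0 to 12.7 in the other 7 libraries, although the values were already scaled by library. Those 3 libraries were 1 thin and 2 normal ones, and the part of depth in this was not tested.

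**Figure D4:**
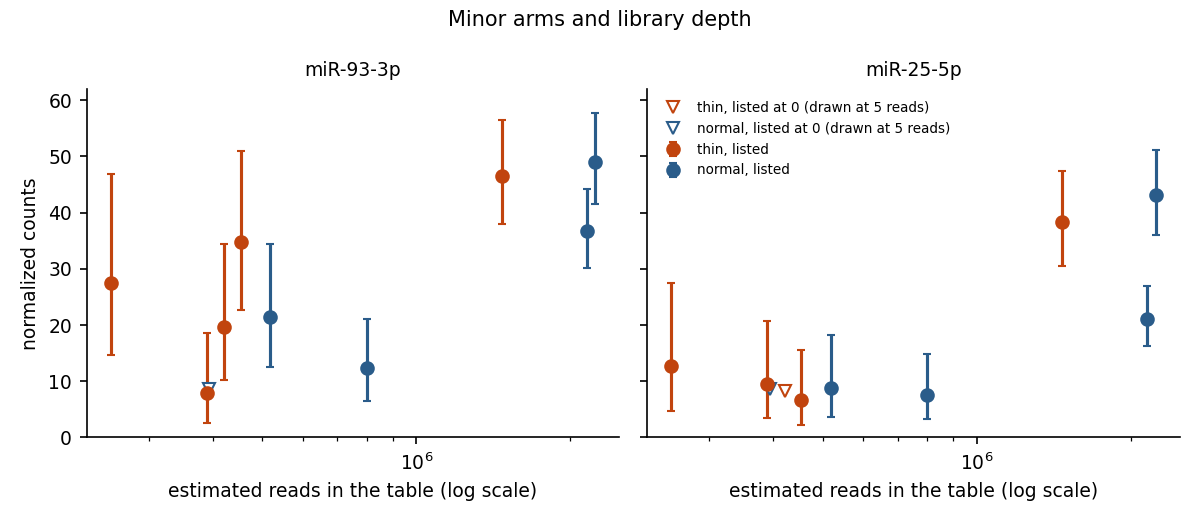
Normalized counts of miR-93-3p (left) and miR-25-5p (right) against the estimated reads of each library on a log scale. Bars are exact Poisson 95% intervals for counting error, open triangles are libraries listed at 0 and drawn at 5 reads, and the 3 deepest libraries hold the highest values of both arms.

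Outside the cluster, 7 rows of the table had the seed of miR-106b-5p and miR-93-5p. Of these 4 were tested and none was called, against 1.92% of all tested rows. MiR-20a-5p, of the miR-17-92 cluster, was the most abundant, at 5278 ± 1847 in thin and 3906 ± 1607 in normal camels (SD, n = 5 each), with a log2 fold change of 0.46 ± 0.31 (SE). MiR-17-5p had 1704 ± 418 and 1632 ± 517, with a log2 fold change of 0.08 ± 0.25, and a row named miR-106a-5p had the same sequence and the same values, so their reads cannot be told apart. MiR-20b was at -0.09 ± 0.77. The 3 distinct sequences among these rows thus ran from -0.09 to 0.46, with 2 above and 1 below 0, and the 2 arms within the cluster were at -0.33 and -0.27.

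For the seed of miR-25-3p, 6 rows outside the cluster were found and 3 were tested, none of them called, against 1.92% of all tested rows. MiR-92a-3p, which equals miR-25-3p in 18 of 22 bases, had 13220 ± 3459 in thin and 19497 ± 3519 in normal camels, with a log2 fold change of -0.58 ± 0.21. MiR-363-3p was at -0.33 ± 0.63 and miR-32-5p at 0.18 ± 0.28. MiR-92a-3p was thus the nearest of the 3 to the -0.84 of miR-25-3p, with groups that overlapped.

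The paralogous clusters miR-17-92 and miR-106a-363, which arose by duplication from an ancestor shared with the miR-106b-25 cluster, had 21 rows, of which 12 were tested. None of these was called, against 1.92% of all tested rows. Over the 11 distinct sequences of the paralogous clusters the median log2 fold change was -0.02, with 5 above and 6 below 0. The highest were miR-19b-3p at 0.94 ± 0.27 and miR-19a-3p at 0.83 ± 0.30, which have no counterpart in the miR-106b-25 cluster. The lowest was miR-18a-3p at -0.92 ± 0.61, on a mean of 11.4 ± 2.46 in thin and 24.7 ± 11.0 in normal camels. MiR-18a-5p was at -0.02 ± 0.33, miR-17-3p at 0.39 ± 0.35 and miR-20a-3p at -0.06 ± 0.27. In the paralogous hairpins with both arms tested, miR-17, miR-18a and miR-20a, the 5p arm exceeded the 3p arm in all 10 libraries, by 3.34, 4.35 and 2.99 on the log2 scale. Their arm ratios overlapped between thin and normal camels.

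**Figure D5:**
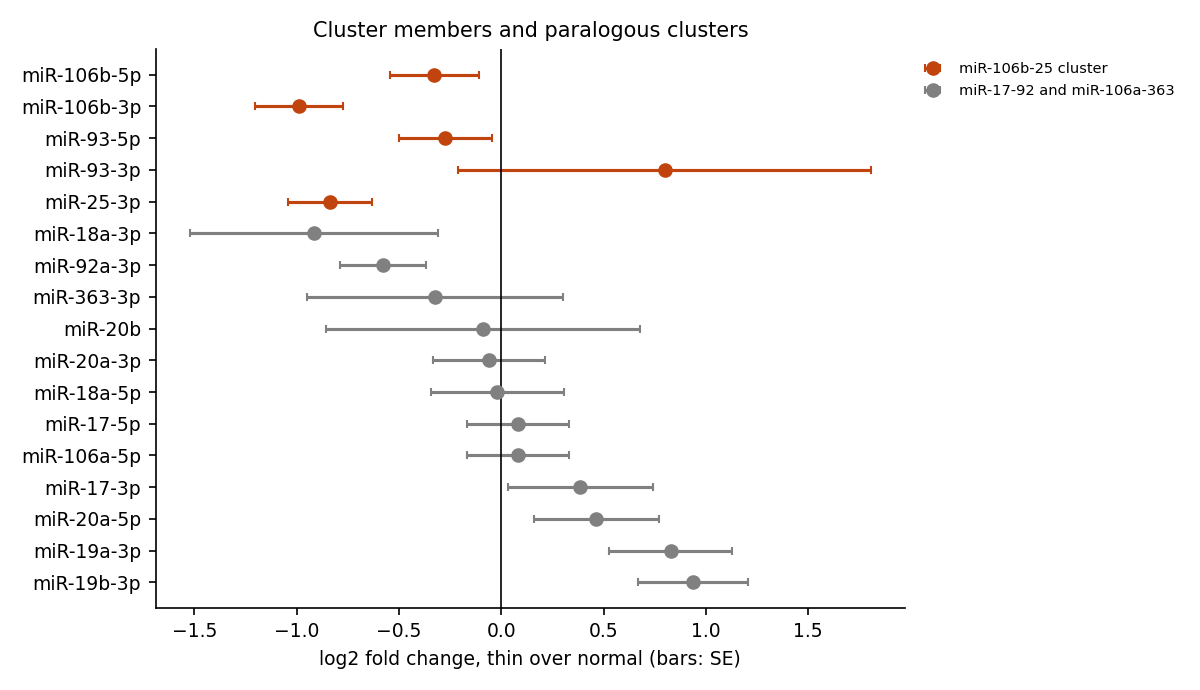
Log2 fold change of thin over normal with its SE for the 5 tested rows of the miR-106b-25 cluster (upper rows) and for 12 tested mature names of the paralogous clusters (lower rows, in order of value). MiR-106b-3p and miR-25-3p lie at -0.99 and -0.84, miR-106b-5p and miR-93-5p at -0.33 and -0.27.

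The pattern of a row over the 10 libraries was compared with that of every other tested row by the root mean square difference of centred log2 values, as a description. MiR-25-3p and miR-106b-3p were each other's nearest among 467 rows, at 0.17 log2 units, against medians of 1.08 and 1.12 over all rows. After its mate, the rows nearest to miR-106b-3p were miR-185-5p (0.21), miR-92a-3p (0.23) and miR-769-5p (0.25), and those nearest to miR-25-3p were miR-185-5p (0.23), miR-92a-3p (0.25) and miR-532-5p (0.31). The 5p arms lay closer to each other than to the 3p arms. MiR-106b-5p took place 4 for miR-93-5p, and miR-93-5p place 6 for miR-106b-5p, at 0.26, while the opposite arm of its own hairpin took place 38 for miR-106b-5p, at 0.36. The rows nearest to miR-106b-5p were miR-484 (0.20), let-7g-5p (0.22) and miR-92a-3p (0.23). Those nearest to miR-93-5p were let-7g-5p (0.19), miR-107 (0.22) and miR-103a-3p (0.25). MiR-93-3p had no close row, with miR-421 (0.83), miR-221-5p (0.84) and miR-872-3p (0.94) nearest. These distances use the thin and normal libraries together and share each library's scaling. They therefore contain the thin against normal differences that chose the cluster. The medians over all rows include scarce rows and are no yardstick for abundant ones, so nothing is read from the distances.

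Markers of the cells that release RNA into plasma were read in the same libraries. The red blood cell miRNAs miR-451a, miR-486 and miR-144 made up 11.5 ± 3.22% of thin libraries (range 7.75% to 14.9%) and 21.2 ± 5.05% of normal ones (14.7% to 28.5%). All 6 tested rows of that list had log2 fold changes below 0, at a median of -1.25, and 1 of them, miR-486, was called. MiR-451a, the most abundant of them, was above 0 in all libraries, at 46257 ± 16186 in thin and 87583 ± 31317 normalized counts in normal camels. The abundant 3p and 5p arms of the cluster and this list thus had lower means in thin camels, as had all 5 tested liver rows. The scarce miR-93-3p did not, at 27.3 in thin and 23.9 in normal camels. Of all 468 tested rows 237 had a log2 fold change below 0, so nothing is read from a shared direction. With equal totals of the rows outside that list, the log2 fold changes were -0.97 for miR-106b-3p, -0.82 for miR-25-3p, -0.31 for miR-106b-5p and -0.26 for miR-93-5p. The part of red blood cell RNA in the values of the cluster was not tested. Platelet and myeloid miRNAs made up 7.52 ± 1.63% of thin and 6.32 ± 1.34% of normal libraries, leukocyte miRNAs 4.01 ± 1.65% and 3.19 ± 0.68%, liver miRNAs 4.65 ± 3.43% and 6.40 ± 4.22%, and muscle miRNAs 0.048 ± 0.051% and 0.022 ± 0.0077%. The median log2 fold changes of the tested rows were -0.01 for platelet and myeloid, 0.11 for leukocyte, -0.56 for liver and 0.78 for muscle miRNAs, with none called in these 4 lists. Of all tested rows 1.92% were called, so nothing is read from counts of calls in lists this short, the red blood cell list included.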

How the data were processed

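The members and lists were chosen with earlier results of these data known. Per the labels, RNA from plasma exosomes was extracted with the mirVana kit, made into TruSeq small RNA libraries and sequenced on an Illumina HiSeq, and reads were filtered with ACGT101-miR. That protocol counts 9 libraries; 10 are labelled and deposited. The authors deposited a signal per library that the file headers call normalized counts; the scaling factor, mapping reference and build are not given in the sources used here. Identical or near-identical miRNAs can share reads. The table had 2 empty lines.

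Values were taken as log2(value + 1) for 468 rows at 10 or more in at least 5 libraries. limma 3.58.1 with a mean trend (R 4.3.3) was fitted with group as the only term, with Benjamini-Hochberg adjustment over all tested rows at 0.05, and tried on simulated data. A count model was foreseen for raw counts only. As about 1 in 10 low values was a fraction of a read, no count test was run. Fold changes, thin over normal, are on the log2(value + 1) scale and depend on the pseudocount for low rows and for rows with a value of 0. Arm and mate ratios, with 1 added to each sum, were compared with exact sign-flip tests. Python 3.11.15, numpy 2.4.6, pandas 2.3.3 and matplotlib 3.10.9 were used.

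All member rows are named, with the most abundant row of each arm of the seed and paralog lists and the 3 nearest names per tested member. The list of the miR-25 seed family named the 3p arm of miR-32, whose 5p arm holds the seed, so seeds were matched by sequence. Alternatives were each library left out, normal 4 and normal 5 left out, the 3 deepest left out, a replicate block, a pseudocount of 10, other filters, other scalings, no trend, summed rows, and, chosen after seeing the data, totals without red blood cell miRNAs.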

Additional observations from a re-analysis of the deposited data

Results flagged for a closer look

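The ratio of miR-25-3p to miR-93-5p was 2.49 in thin 3, while the other 4 thin libraries had 1.79 to 1.98. Thin 3 stood apart within its group by Dixon's test at the 95% level, with a ratio of gap to range of 0.732. With both arms summed the ratio of miR-25 to miR-93 was 2.45 in thin 3 and 1.79 to 1.96 in the others (gap to range 0.747). These 2 measures are nearly the same one. Of 41 sets of 5 or 4 values checked, 2 were picked out, and chance picks out about 1 in 20.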

How the results depend on the processing

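Over whole-table fits limma called 9 rows, and between 6 and 14 with each library left out, the 14 without thin 1. It called 3 without normal 4 and normal 5, 5 without the 3 deepest libraries, 15 with no filter, 4 without a mean trend, and 0 after upper quartile rescaling, where 106 had an unadjusted p under 0.05. Over all tested rows the median was -0.87 on the log2 scale after that rescaling, 0.17 with equal library totals and -0.41 with no filter, against -0.01 as reported. Relative to it, miR-106b-3p and miR-25-3p were at -0.97 and -0.82 with equal library totals and at -0.58 and -0.43 with no filter, where miR-106b-5p and miR-93-5p were at 0.08 and 0.14. MiR-106b-3p, miR-25-3p, miR-106b-5p and miR-93-5p stayed below 0 in all 22 alternatives; miR-106b-3p stayed called in 7 of them, and miR-25-3p became called in 3. MiR-93-3p turned to -0.0586 after upper quartile rescaling and lay between -0.16 without normal 2 and 1.25 without normal 5 with each library left out. It was 1.88 without normal 4 and normal 5, the highest of its alternatives. MiR-93 over miR-106b lay between -0.0296 and 0.0767 on the log2 scale with each library left out. The other 5 arm and mate ratios kept their direction and side of the threshold in all 14 alternatives. With the replicate number as a block, limma called 9 rows, 8 of them shared with the fit without it, and miR-106b-3p was not called. Same-numbered libraries share only a number: their deviations correlated between -0.20 and 0.52, and 2 of 5 thin libraries matched their own number best. The count tests foreseen for raw counts were not run. Depth limits the minor arms, which rest on as few as 5 reads.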
